A study of Populus davidiana with 6 samples.

Results

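Antisense loci are stretches of assembled transcript that lie over an annotated gene but on the other strand. In leaves of the aspen Populus davidiana, 341 such loci were described among 40537 gene identifiers. They were chosen by position. Of 2158 identifiers without an annotated transcript, 828 had a strand and a span of at least 200 bp. Of these, 419 overlapped the span of an annotated gene on the opposite strand, and 341 were above 0 in 3 or more of the 6 libraries. The value of a locus is the sum of the FPKM of its transcripts, where FPKM counts fragments per kilobase of transcript, relative to the size of the library. The series compares the leaf transcriptome of the drought-tolerant cultivar Odae19 with and without a drought stress. The 3 control libraries came from seedlings about 6 weeks old, grown in vitro. The 3 air-dried libraries came from such plants, lifted from the medium, washed and kept out in the open for about 10 min. What was done to the control plants is not stated, so uprooting, washing and drying cannot be told apart. Whether the 3 libraries of a group came from separate plants is not stated either. Every p-value therefore sets the difference between the groups against a spread between these libraries that may be technical.

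Natural antisense transcripts are RNAs made from the strand opposite to a gene. In plants some are known to be cut together with the sense RNA into small RNAs, some act on the chromatin of the sense gene, as at the flowering repressor FLC of Arabidopsis, and many have no known role. A transcript whose 3′ end meets the 3′ end of the gene is called tail to tail, or convergent, and one whose 5′ end meets the gene's 5′ end is called head to head, or divergent. The kit used here, TruSeq RNA after poly(A) selection, does not mark the strand of a read. Assemblers take the strand of an unstranded transcript from its splice junctions, and reads inside the overlap cannot be assigned to either strand by themselves. The split of FPKM between a locus and its overlapped gene is therefore an estimate throughout, and the values of every locus and gene given here are uncertain for that reason.

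The loci lay on both strands and across the genome. The plus strand held 173 and the minus strand 168. The 19 chromosomes carried 316 loci, from 9 on chromosome 13 to 26 on chromosome 1, and unplaced scaffolds carried 25. The median span, introns included, was 1724 bp, with quartiles of 715 and 7193 bp and extremes of 202 and 302591 bp. A single transcript was listed for 277 loci (81.2%). The shortest loci just inside the length limit spanned 202, 203 and 204 bp at 403, 3963 and 2598 FPKM, and the longest antisense locus just outside it spanned 198 bp.

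Most loci overlapped 1 annotated gene. There were 269 with 1 and 72 with more, up to 21. The gene with the longest overlap in bp is called the overlapped gene of a locus. By this choice the 341 loci had 320 overlapped genes, and 35 loci shared theirs with another locus. In 170 cases the locus lay wholly inside the span of the gene. In 71 it was tail to tail and in 62 head to head, and in 38 the whole gene lay inside the locus. A locus that reached past 1 end of the gene by any length, even 1 bp, was classed as tail to tail or head to head. The median overlap was 981 bp. The files list no exons, so overlap here is between spans. In 288 loci the overlap reached the span of an annotated transcript, and in 53 it reached assembled extensions of the gene alone. The identifiers of 238 loci carry a transcript ending in the letter x, which in the comparison tool of the Cufflinks suite marks exonic overlap on the opposite strand, although the files do not say that their letters are those codes. An annotated gene on the locus's own strand was also overlapped by 61 loci.

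Antisense loci covered a wide range of levels. The median over the 341 loci of the mean over 6 libraries was 6.26 FPKM, with quartiles of 1.93 and 27.8 FPKM. There were 40 loci under 1 FPKM, 155 from 1 to 10, 106 from 10 to 100, 31 from 100 to 1000 and 9 at or above 1000 FPKM. As a group they were listed at about the same FPKM as the genes they overlap, although the level of a locus differed with its span. The median was 17.7 FPKM for loci spanning 200 to 500 bp, 4.73 FPKM from 500 to 1000 bp and 2.93 FPKM from 1000 to 2000 bp. It was 10.2 FPKM from 2000 to 5000 bp and 12.6 FPKM at 5000 bp or more. The locus was above its overlapped gene in 178 pairs and below it in 163, and the median ratio of locus to gene was 0.964 over the 322 pairs whose gene was not listed at 0 throughout. In 109 pairs the locus was above the gene in all 6 libraries, and in 121 it was below in all 6. The balance differed with the layout. Where the gene lay inside the locus, 28 of 38 loci were the more abundant partner, with medians of 14.4 FPKM for loci and 1.38 FPKM for genes. Head to head the locus was higher in 39 of 62 pairs and tail to tail in 40 of 71. Where the locus lay inside the gene it was higher in 71 of 170 pairs, with medians of 5.99 FPKM for loci and 7.97 FPKM for genes. These differences between layouts were not tested.

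**Figure D1:**
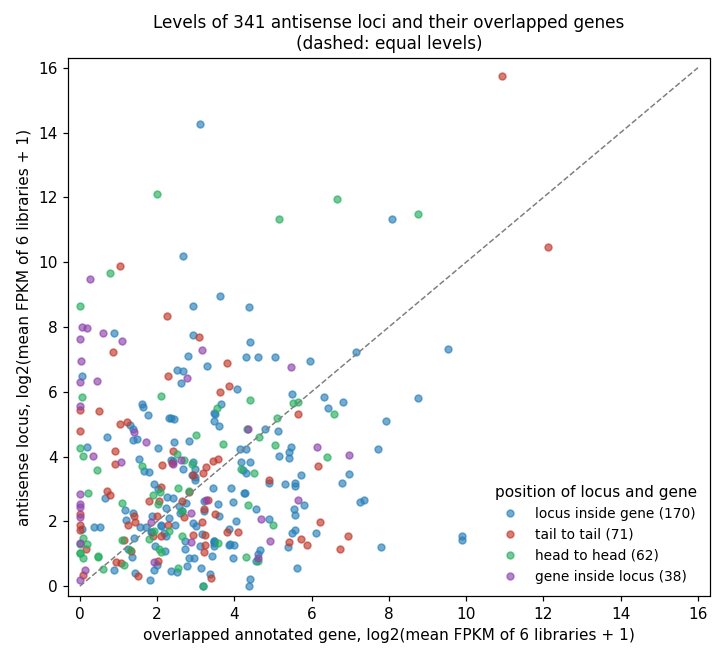
Mean level of each of the 341 antisense loci (vertical axis) against that of its overlapped annotated gene (horizontal axis), both as log2(mean FPKM of 6 libraries + 1), coloured by layout. Points above the dashed line of equal levels are the 178 loci that were higher than their gene, and 19 loci stand at the left edge over genes listed at 0 in all libraries.

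The most abundant antisense locus lay on the minus strand of chromosome 1 (40733379 to 40734200), tail to tail with a single-transcript gene. Controls 1, 2 and 3 had 93742, 42285 and 27796 FPKM of it, and air-dried 1, 2 and 3 had 94380, 31878 and 37388 FPKM. Control 1 and air-dried 1 stood above the other libraries, and the groups overlapped. Its overlapped gene was also among the abundant genes, at 1265 to 1891 FPKM in the controls and 2274 to 2294 FPKM in the air-dried leaves. The locus with the second highest mean, on chromosome 15 (4798891 to 4806129, plus strand), was listed at 0 in controls 1 and 3 and air-dried 3 and at 51288, 29631 and 37633 FPKM in control 2 and air-dried 1 and 2. The gene around it measured 6.28 to 8.99 FPKM in the same libraries. Since a listed 0 may be a failed estimate rather than a lack of reads, this on-and-off pattern is a property of the listed values.

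Another 3 of the 10 most abundant loci were head to head with a single-transcript gene and short. The locus on the minus strand of chromosome 6 (1120341 to 1120543) measured 6985, 6424 and 1244 FPKM in the controls and 6645, 1093 and 1386 FPKM in the air-dried libraries. The one on the plus strand of chromosome 2 (17836238 to 17836441) stood at 4819, 2935 and 1728 FPKM in control leaves and at 2028, 1388 and 2692 FPKM after drying. The one on the minus strand of chromosome 1 (25447046 to 25447736) stood at 4107, 3252 and 1979 FPKM in control leaves and at 3490, 2093 and 2221 FPKM after drying. In the chromosome 6 locus controls 1 and 2 and air-dried 1 were the high libraries, and in all 3 loci the groups overlapped. Their overlapped genes were lower, at means of 99.6, 34.6 and 427 FPKM over the 6 libraries. The other 5 of the 10 most abundant loci had means from 934 to 4438 FPKM and lay on chromosomes 1, 7, 14 and 17. The one on chromosome 7 (2715261 to 2719927) was the exception among the 10 in standing below its gene, at 0.316 times its level.

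The ratio of locus to gene was highest where the gene was scarcely listed at all. The 5 highest ratios, from 1967 to 7826, belonged to loci on chromosomes 1, 11, 14, 15 and 16, and 4 of the 5 genes had means under 0.2 FPKM. The locus on chromosome 14 (7749740 to 7760583, plus strand) stood at 114, 607 and 316 FPKM in control leaves and at 83.4, 253 and 139 FPKM after drying. The gene inside it was listed at 0.0979 and 0.0954 FPKM in controls 1 and 2 and at 0 in the other libraries. In 79 of the 341 pairs the locus was over 10 times its gene, including the genes listed at 0, and in 45 pairs the gene was over 10 times its locus. The locus with the longest span, 302591 bp on the minus strand of chromosome 19 (13739642 to 14042232), overlapped 12 annotated genes. It stood at 64.0, 88.1 and 91.2 FPKM in control leaves and at 56.6, 70.5 and 54.3 FPKM after drying, with overlapping groups.

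Levels of antisense loci varied between libraries far more than those of most genes. Tests and ranges used genes that reached 1 FPKM in 3 or more libraries, a filter that passed 22559 genes and 301 of the 341 loci. The highest library was within 1.5 times the lowest in 16 of these 301 loci (5.32%), against 56.9% of all tested genes and 7.55% of 278 tested stranded loci that overlap no annotated gene. It was over 10 times the lowest, zeros included, in 24.3% of the 301 loci, against 3.67% of all tested genes and 17.6% of those 278 loci. Of all 341 loci, 50 were listed at 0 in at least 1 library, and 24 of them reached 10 FPKM or more in another. A value above 0 but under 0.001 FPKM was listed for 43 loci in at least 1 library, and 331 loci had at least 0.001 FPKM in 3 or more libraries. The 14 loci above 0 in exactly 3 libraries had highest values of 7.74e-05 to 51288 FPKM, with a median of 8.27 FPKM. The 8 antisense loci above 0 in just 2 libraries, which were left out, had a median of 7.24 FPKM.

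The libraries differed in the level of antisense loci as a whole, not simply along the treatment. On the log2(FPKM + 1) scale, the median deviation of the 301 loci from their own mean was 0.18, 0.24 and −0.05 in controls 1, 2 and 3 and 0.09, −0.18 and −0.07 in air-dried 1, 2 and 3. For all tested genes these medians lay between −0.023 and 0.023. Controls 1 and 2 and air-dried 1 were thus above their mean, and control 3 and air-dried 2 and 3 below it. The highest value of a locus fell in air-dried 1 for 75 loci and in control 1 for 74, but in air-dried 2 for 23 and in air-dried 3 for 24. The number of the 341 loci at 1 FPKM or more was 265 to 291 in every library. The median FPKM of all tested genes lay between 11.3 and 11.9 in every library. The files hold no read counts, so sequencing depth and its part in these values are unknown.

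**Figure D2:**
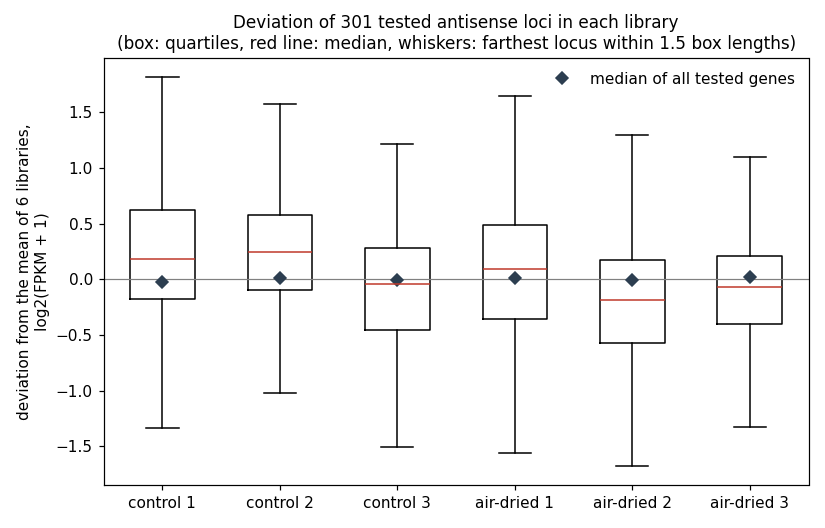
Deviation of the 301 tested antisense loci from their mean over 6 libraries, on the log2(FPKM + 1) scale, with a box for each library (loci beyond the whiskers not drawn) and a diamond for the median of all tested genes. The medians of the loci run from −0.18 in air-dried 2 to 0.24 in control 2, while the diamonds stay between −0.023 and 0.023.

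After air-drying 5 antisense loci rose and 5 fell among the 301 tested, and the 3 largest of these rises, at over 3 on the log2 scale, exceeded the largest of these falls, at −1.09. This was tested with limma on log2(FPKM + 1) over all 22559 genes, and called means a Benjamini-Hochberg adjusted p under 0.05 over all of them. The 10 called loci are 3.32% of those tested, against 4.3% of all tested genes. Genes called higher were 3.61% of all tested genes and genes called lower 0.696%. In 13 loci all 3 air-dried libraries lay above all 3 controls, and in 26 they lay below, which is 4.32% and 8.64%, against 13.4% and 9.18% of all tested genes. A difference of at least 2-fold upward was seen in 19 loci and downward in 30, where 2.59% and 1.18% of all tested genes were past that size. An unadjusted limma p under 0.05 was seen in 43 of the 301 loci and in 3719 of all 22559 tested genes. The count of 10 called loci was 6 when air-dried 3 was left out, 5 for air-dried 2, 6 for control 2 and 4 for control 1. Without control 3 and air-dried 1 together it was 45, with 12 higher and 33 lower, where 3.48% and 2.41% of all tested genes were called higher and lower. For the loci as a whole, control 3 was the lowest control and air-dried 1 the highest air-dried library.

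**Figure D3:**
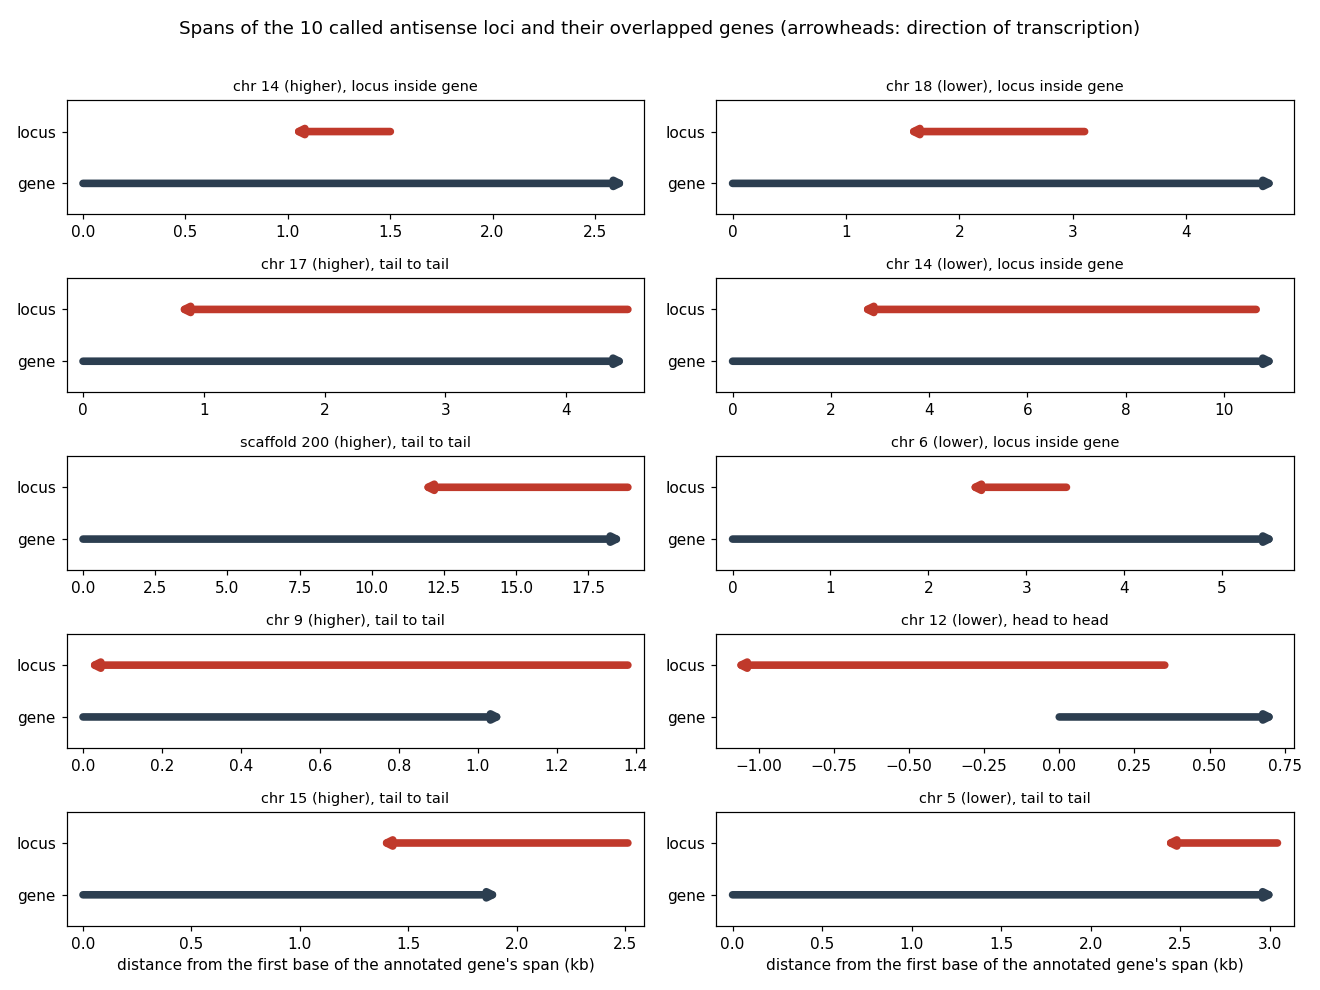
Spans of the 10 called antisense loci (red) and of their overlapped genes (dark blue), drawn to scale within each panel as distance in kb from the first base of the gene, with arrowheads in the direction of transcription. Of the 5 loci that rose (left column), 4 lie tail to tail with the gene and 1 inside it. Of the 5 that fell (right column), 3 lie inside the gene, 1 is head to head and 1 tail to tail. The tail-to-tail loci of chromosome 17 and chromosome 5 share 3741 of 3743 bp and 644 of 645 bp with the gene, and so lie almost inside it.

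The largest rise among the called loci was that of POPTR_0014s09190.r1, a single-transcript locus on chromosome 14, plus strand (6826874 to 6827363). Its 490 bp lie wholly inside the span of a single-transcript annotated gene on the minus strand (6825714 to 6828375). Controls 1, 2 and 3 had 4.91, 2.91 and 1.33 FPKM of the locus, and air-dried 1, 2 and 3 had 82.0, 36.5 and 41.2 FPKM. Every air-dried library was several times above every control, and air-dried 1 was the highest. The means were 3.05 ± 1.79 and 53.2 ± 25.0 FPKM (SD, n = 3), and the change on the log2(FPKM + 1) scale was 3.75 (SE 0.43, limma adjusted p = 0.00687). The gene around it rose too, from 7.62, 6.85 and 7.32 FPKM to 42.1, 47.3 and 48.0 FPKM. Its change on the same scale was 2.50 (SE 0.082, limma adjusted p = 5.83e-05). The locus stood at 0.644, 0.425 and 0.182 times the gene in the controls and at 1.95, 0.770 and 0.858 times the gene after drying.

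POPTR_0017s01120.r1 on the plus strand of chromosome 17 (798970 to 802712) was the most abundant locus that rose. It stood at 214, 209 and 123 FPKM in control leaves and at 2173, 1326 and 1557 FPKM after drying, with means of 182 ± 51.1 and 1686 ± 438 FPKM (SD, n = 3). The groups were far apart, and the change was 3.21 on the log2(FPKM + 1) scale (SE 0.28, limma adjusted p = 0.0024). Its overlapped gene lies tail to tail with it on the minus strand (798972 to 803482). That gene was listed at 0 in all 3 controls and at 2.76, 1.65 and 1.88 FPKM after drying (limma adjusted p = 0.00371), so it passed the filter through the air-dried group and its direction was set by that. In the air-dried libraries the locus was 788, 805 and 827 times the gene, a nearly fixed ratio. The annotated transcript of the gene covers 802449 to 803482 and shares 264 bp with the span of the locus, while the rest of the overlap is with an assembled transcript. The annotated transcript alone was listed at 0 in the controls and at 0.863, 0.228 and 0.394 FPKM after drying.

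A locus on the plus strand of scaffold_200 (2285 to 9498) rose from low levels. It was listed at 1.07, 1.02 and 0 FPKM in the controls and at 16.4, 13.6 and 11.9 FPKM after drying, a change of 3.20 on the log2(FPKM + 1) scale (SE 0.31, limma adjusted p = 0.00327). With a pseudocount of 0.1 FPKM its adjusted p was 0.0584. The gene it overlaps, tail to tail on the minus strand (2389 to 21160), holds 3 annotated transcripts, 1 of which lies wholly inside the locus. This gene rose from 0.700, 0.620 and 0.946 FPKM to 5.13, 6.49 and 5.90 FPKM, by 1.96 on the same scale (SE 0.12, limma adjusted p = 0.000566). All its controls were under 1 FPKM, so its direction too was set by the filter. From its annotated transcripts alone the gene was not called (limma adjusted p = 0.102).

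The locus on the plus strand of chromosome 9 (3175205 to 3176577) covers nearly the whole of a short gene on the minus strand (3175516 to 3176585). It was listed at 0, 0.172 and 0.554 FPKM in the controls and at 2.04, 4.28 and 4.53 FPKM after drying, a change of 1.87 on the log2(FPKM + 1) scale (SE 0.29, limma adjusted p = 0.0209). All its controls were under 1 FPKM, so it passed the filter through the air-dried group and its direction was set by that. The gene rose beside it from 0.852, 1.02 and 1.11 FPKM to 5.85, 5.50 and 5.54 FPKM (log2 change 1.74, SE 0.092, limma adjusted p = 0.000286). The gene was called from its annotated transcript alone as well (limma adjusted p = 0.00654). The call of the locus was lost in 5 of 16 alternative settings, among them the omission of any library but control 3 and air-dried 1, with adjusted p up to 0.0937.

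The fifth locus that rose was the smallest change of the 5 and had no called gene beside it. It lies on the minus strand of chromosome 15 (6084086 to 6085237) and stood at 1.75, 2.19 and 2.27 FPKM in control leaves and at 4.17, 3.82 and 3.65 FPKM after drying. The change was 0.67 (SE 0.11, limma adjusted p = 0.0234), and its call was lost in 10 of 16 alternative settings, including the omission of any 1 library. Its overlapped gene, tail to tail on the plus strand (6082726 to 6084652), stood at 0.561, 1.52 and 1.26 FPKM in control leaves and at 1.72, 3.22 and 2.02 FPKM after drying (limma adjusted p = 0.26). Of the 5 loci that rose, 4 lay over a gene called higher in the same libraries, where 3.61% of all tested genes were called higher. In 3 of those 4 pairs the gene (chromosome 17 and scaffold_200) or the locus (chromosome 9) could pass the filter through the air-dried group alone. In the 4 pairs 77.3% to 100% of the span of the locus lies over the gene. Exons are not listed, so how many reads lie where the strands cannot be told apart is unknown. The 2 calls of a pair can therefore not be taken as independent, and the share of 3.61% is no measure of how often they would coincide.

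**Figure D4:**
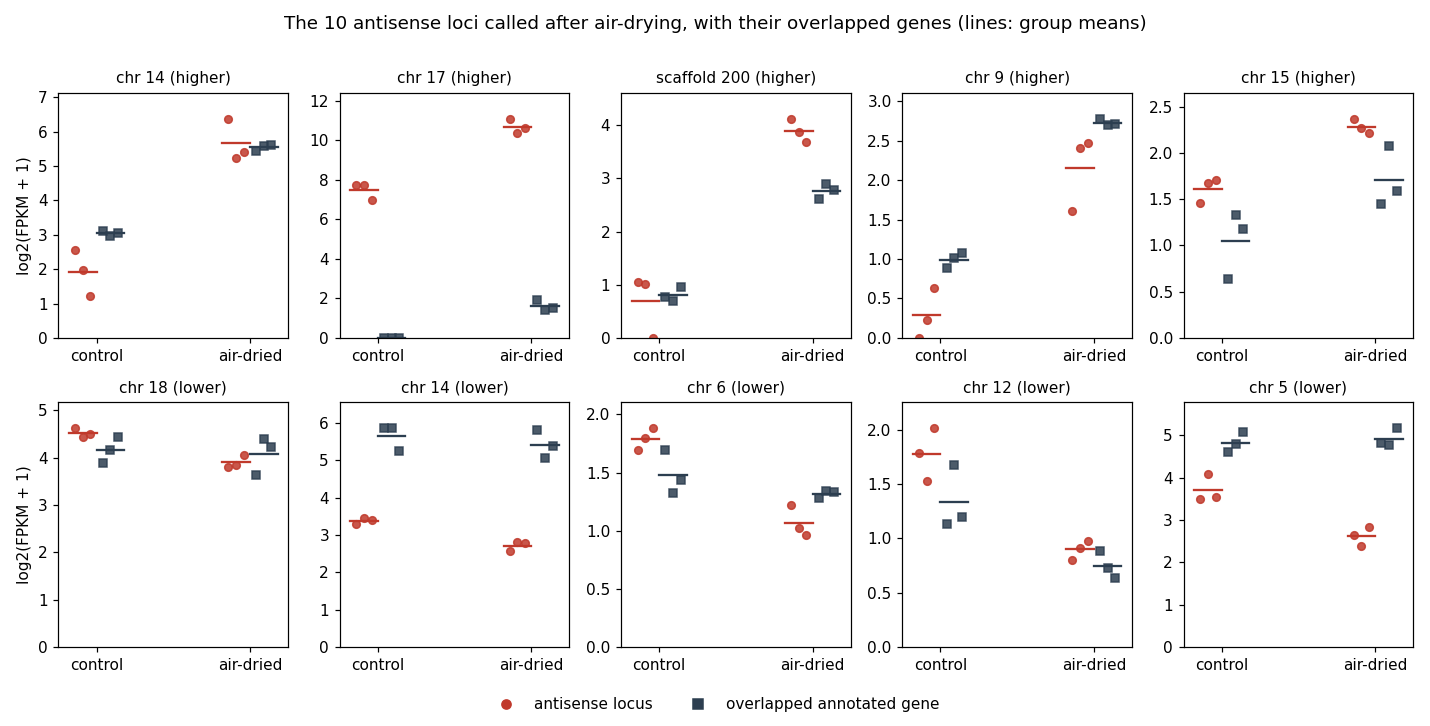
Values of the 10 called antisense loci (red circles) and of their overlapped genes (dark squares) in the 3 control and 3 air-dried libraries, as log2(FPKM + 1), with lines for the group means. In the top row the gene is also called higher in the first 4 panels, and in the bottom row, the loci that fell, no gene is called. Of all tested genes 3.61% are called higher and 0.696% lower.

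The 5 loci that fell did so by less than 3-fold. None of their overlapped genes was called (0 of 5), where 4.3% of all tested genes were called and 0.696% were called lower. At these shares the count of 0 says little about the genes. The largest fall was that of XLOC_029265 on chromosome 5, minus strand (12643473 to 12644117). This locus stood at 10.4, 15.9 and 10.7 FPKM in control leaves and at 5.31, 4.23 and 6.10 FPKM after drying. All air-dried libraries lay below all controls, and the change was −1.09 on the log2(FPKM + 1) scale (SE 0.19, limma adjusted p = 0.0367). Its overlapped gene, tail to tail on the plus strand (12641073 to 12644116), stood at 23.3, 26.8 and 33.0 FPKM in control leaves and at 27.3, 26.4 and 35.1 FPKM after drying, with overlapping groups (log2 change 0.09, SE 0.16, limma adjusted p = 0.845). The annotated transcript of that gene (12641098 to 12641793) does not reach the locus, so the overlap is with its assembled transcripts. The locus went from 0.445, 0.594 and 0.323 times the gene to 0.195, 0.160 and 0.174 times.

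POPTR_0012s12230.r1 on the plus strand of chromosome 12 (12471367 to 12472805) is head to head with a single-transcript gene (12470992 to 12471718, minus strand). It stood at 2.44, 1.88 and 3.04 FPKM in control leaves and at 0.747, 0.879 and 0.970 FPKM after drying (log2 change −0.88, SE 0.15, limma adjusted p = 0.0323). Every air-dried library was under 1 FPKM, so this locus passed the filter through the controls. The gene stood at 1.20, 2.18 and 1.29 FPKM in control leaves and at 0.847, 0.653 and 0.554 FPKM after drying, also without overlap between the groups but not called (limma adjusted p = 0.168).

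The other 3 loci that fell lie inside the span of their gene. The one on the plus strand of chromosome 6 (25865517 to 25866535) stood at 2.23, 2.48 and 2.69 FPKM in control leaves and at 1.34, 1.04 and 0.949 FPKM after drying (log2 change −0.72, limma adjusted p = 0.026). The one on the plus strand of chromosome 14 (1975308 to 1983387) stood at 8.82, 9.99 and 9.60 FPKM in control leaves and at 4.93, 5.97 and 5.84 FPKM after drying (log2 change −0.67, limma adjusted p = 0.0157). The one on the plus strand of chromosome 18 (9873247 to 9874829) stood at 23.7, 20.6 and 21.6 FPKM in control leaves and at 12.9, 13.3 and 15.6 FPKM after drying (log2 change −0.62, limma adjusted p = 0.0229). In each, all air-dried libraries lay below all controls. The last 2 also overlap an annotated gene on their own strand. Their overlapped genes, in the same order, had limma adjusted p = 0.614, 0.717 and 0.922. The chromosome 14 gene holds 4 annotated transcripts, not all of which reach the locus, and the annotated transcript on chromosome 18 shares 96 bp with it. From annotated transcripts alone, control and air-dried means were 1.65e-13 and 7.43e-25 FPKM on chromosome 6 and 0.211 and 5.29e-05 FPKM on chromosome 18. Each of the 5 falls lost its call in at least 5 alternative settings, among them leaving out control 3.

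Several loci with larger differences did not pass the test, and their libraries within a group were far apart. The largest such difference with separate groups was on the plus strand of chromosome 1 (24525512 to 24525888), at 19.4, 14.5 and 1.13 FPKM in the controls and 0, 0 and 1.11 FPKM after drying (limma adjusted p = 0.187). A locus on the plus strand of chromosome 18 (4583960 to 4584264) stood at 11.7, 15.0 and 9.47 FPKM in control leaves and at 1.37e-05, 2.57 and 4.32 FPKM after drying (limma adjusted p = 0.125). In the opposite direction, a locus on the plus strand of chromosome 7 (10678609 to 10689834) was listed at no more than 0.00153 FPKM in any control and at 1.05, 5.65 and 6.55 FPKM after drying (limma adjusted p = 0.0739). This locus passed the filter through the air-dried group alone, so its direction was set by that. Its overlapped gene, nearly coextensive with it, stood at 10.9, 11.3 and 18.2 FPKM in control leaves and at 11.7, 12.4 and 14.4 FPKM after drying. In all, 29 of the 39 loci with separate groups were not called. Among all tested genes the groups were separate in 5098 and 971 were called, so most genes with separate groups were not called either.

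Another 3 loci that the naming rule brought up by their size of fall also had adjusted p-values above the threshold. They lie on chromosome 15 (12356407 to 12357850), chromosome 9 (6309678 to 6310215) and chromosome 19 (3767937 to 3799963). Their control means were 8.29 ± 4.49, 3.16 ± 0.831 and 2.93 ± 1.10 FPKM, and their air-dried means 1.46 ± 1.26, 0.781 ± 0.684 and 0.711 ± 0.741 FPKM (SD, n = 3). The limma adjusted p-values were 0.184, 0.119 and 0.159. Each of the 3 was listed at 0 in air-dried 1.

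Of the annotated genes beneath the loci, 12 were called higher and 6 lower. These 18 are 5.47% of the 329 overlapped genes tested, of 512 in all, against 4.3% of all tested genes. The count of 18 was 8, 7 and 12 when controls 1, 2 and 3 were left out in turn and 11, 9 and 8 for air-dried 1, 2 and 3, and it was 4 from annotated transcripts alone. Among the genes of longest overlap, 10 were called higher and 4 lower of 266 tested. The 4 whose locus rose with them were described above. Other rises among the 6 largest called changes were on chromosome 14 and chromosome 10. On chromosome 14 a plus-strand gene (13078350 to 13086759) rose from 3.49, 1.67 and 2.35 FPKM to 11.6, 7.27 and 10.5 FPKM (log2 change 1.63, SE 0.24, limma adjusted p = 0.0181). Its call was lost in 5 of 17 alternative settings, among them the omission of control 2, control 3, air-dried 1 or air-dried 3, with adjusted p up to 0.0929. The antisense locus inside it (13078532 to 13086191) was listed at 0 in all controls and at 1.90, 0.810 and 2.19 FPKM after drying, and did not pass the filter. On chromosome 10 a plus-strand gene (14604874 to 14637313) rose from 6.71, 7.52 and 6.39 FPKM to 21.2, 19.2 and 20.2 FPKM (log2 change 1.43, SE 0.084, limma adjusted p = 0.000441). The locus inside it (14616086 to 14617017) stood at 3.58, 3.35 and 1.59 FPKM in control leaves and at 3.31, 0.298 and 2.34 FPKM after drying, with overlapping groups. From its annotated transcripts alone that gene was not called (limma adjusted p = 0.114).

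The 4 called falls among the genes of longest overlap were all under 2-fold. The largest of the 4 was on the plus strand of chromosome 8 (13301126 to 13307405), from 55.6, 53.7 and 55.2 FPKM to 32.3, 32.2 and 34.5 FPKM (log2 change −0.72, SE 0.065, limma adjusted p = 0.00269). The locus inside it, at a log2 change of −0.26, was not called (limma adjusted p = 0.445). The called genes of longest overlap had 15 loci over them, 13 of them tested. Of these 13, 9 had a log2 change of the same sign as the gene and 4 of the opposite sign, and 4 were themselves called. The 4 of opposite sign lay over genes that rose, on chromosomes 10, 11 and 19, and none of the 4 loci was called. Both larger called falls were in genes on the plus strand of chromosome 1 that are not the longest overlap of any locus. One (42430397 to 42442460) was listed at 3.92, 3.53 and 1.00 FPKM in control leaves and at 0 after drying in every library (limma adjusted p = 0.0466), and its annotated transcript alone was listed at 0 throughout. The other (23128465 to 23128901) went from 2.38, 2.43 and 1.34 FPKM to 0, 0 and 0.447 FPKM (limma adjusted p = 0.0258). Both passed the filter through the controls alone, so their direction was set by it.

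Across pairs, the locus and its gene more often had changes of the same sign than not. In 251 pairs both members were tested, and 157 (62.5%) had the same sign, with both above 0 in 56 and both below 0 in 101. Locus above and gene below 0 was seen in 26 pairs, and the reverse in 68. Spearman's rho of the 2 changes across the 251 pairs was 0.27, a description over pairs that share libraries and, within the overlap, reads that cannot be told apart. By layout the share of the same sign was 63.8% of 141 pairs with the locus inside the gene, 62.7% of 51 tail to tail, 58.5% of 41 head to head and 61.1% of 18 with the gene inside the locus. For comparison, 885 tested pairs of annotated genes that overlap on opposite strands had the same sign in 53.4%, with rho = 0.09. Both members had separate groups in 10 of the 251 pairs. Both were higher after drying in 6, both lower in 3, and the locus lower with the gene higher in 1. Singly, groups were separate upward in 13.4% and downward in 9.18% of all tested genes, and in 4.32% and 8.64% of the 301 loci. The same count was not made for the annotated pairs. The difference between antisense loci and annotated pairs was not tested.

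**Figure D5:**
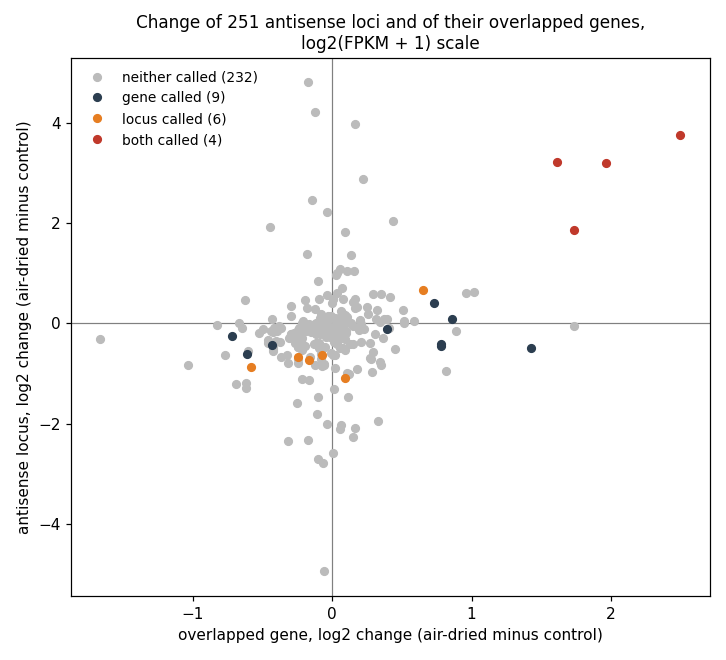
Change of each antisense locus (vertical axis) against that of its overlapped gene (horizontal axis) in the 251 pairs with both tested, as the log2(FPKM + 1) difference of air-dried minus control. The 4 pairs with both called stand apart at the upper right, while the 6 other called loci lie over genes with changes between −0.58 and 0.65.

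Antisense loci were displaced downward as a group, whereas the genes beneath them were not. The median log2 change was −0.16 over the 301 tested loci, with 101 above 0 and 200 below, against 0.0037 over all tested genes and 0.0058 over the 266 genes of longest overlap. The 278 tested stranded loci that overlap no annotated gene had a median of −0.13, with 100 above 0 and 178 below, and 3 of them were called higher and 5 lower. The 2026 tested annotated genes that overlap an annotated gene on the other strand had a median of 0.0059. Among the antisense loci the median was −0.54 for the 40 spanning 200 to 500 bp, where all tested genes of that span had −0.23, and −0.12 for the 89 spanning 5000 bp or more, against 0.0025. By layout it was −0.26 head to head, −0.21 with the locus inside the gene, −0.14 with the gene inside the locus and −0.02 tail to tail. Tail to tail was also the layout of 4 of the 5 loci that rose, although the one on chromosome 17 has 99.9% of its span over the gene and the one on scaffold_200 98.6%. The size of this median differed with the libraries used. Leaving out air-dried 2, where the loci were lowest as a whole, gave −0.09, and leaving out control 2, where they were highest, gave −0.12. It was −0.27 without control 3, the control where the loci were lowest, and −0.32 without control 3 and air-dried 1 together. Air-dried 1 was the air-dried library where the loci were highest, so these lower medians are no independent support. The median was below 0 in all 17 alternatives. Among the 17, the replicate block and the use of annotated transcripts alone cannot change this median, which stayed at −0.16. What part library differences have in it was not tested.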

How the data were processed

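Poly(A) RNA of leaves was sequenced in 6 libraries with paired 100 bp reads, per the labels' protocols, and libraries were grouped by their titles. The deposited values are FPKM per transcript, per the file headers, without read counts, so depth per library is unknown and its precision cannot be given. FastQC, TopHat and Cufflinks are named, per the submitters' processing notes. Genome build, annotation version and filters: not given in the sources used here. All coordinates are those of the files, counted from 1. The 6 files list the same 112919 transcripts. No gene names are given (0 names), so identifiers are paired with neither names nor functions. Just 2 rising and 2 falling identifiers are therefore printed, and other loci are given by position.

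FPKM was summed over the transcripts of an identifier. Loci were kept at a span of at least 200 bp, with at least 1 bp of overlap. Genes with at least 1 FPKM in 3 of 6 libraries were tested with limma 3.58.1 under R 4.3.3, by lmFit and a trended eBayes. The 2-sided test used log2(FPKM + 1), which understates the change of low genes, and group was its one term. Benjamini-Hochberg adjustment ran over all 22559 genes. The test was first tried on simulated data. Tables were built with pandas 2.3.3. The 40 loci that missed the filter have no test. Of the 301 tested, 2 passed through the air-dried group alone and 2 through the controls alone.

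Loci named in the text were the 10 of highest mean, the 5 largest rises and falls with separate groups, the called loci, those over the 6 called genes of largest change, the 5 highest ratios to the gene and the longest. The members and lists were chosen with earlier results of these data known. Layouts, span classes and the comparison with annotated pairs were chosen after the files were seen. Classes of genes by product, and checks of leaf markers, were not made because they need names.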

Additional observations from a re-analysis of the deposited data

How the results depend on the processing

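Alternatives that did not move a count by over 1.5 times were a pseudocount of 0.1 or 5 FPKM, no filter, median centring, quantile normalization, an overlap of at least 200 bp and a span of at least 500 bp. The count of 10 called antisense loci was 6 at a mean of at least 5 FPKM, where 186 loci were tested, 25 with library weights (8 higher, 17 lower), 45 without control 3 and air-dried 1 (12 higher, 33 lower) and 6 with annotated transcripts alone for the annotated genes. The 45 included 4 of the 10. The count of 18 called overlapped genes was 9 at a mean of at least 5 FPKM, 10 after scaling to a common sum over transcripts of at least 200 bp, 46 with library weights and 4 from annotated transcripts alone, and with median centring it split into 9 higher and 7 lower. The 971 genes called in all were 553, 644 and 2516 with the mean of 5 FPKM, the common sum and library weights. The weights were lowest for air-dried 1 (0.407) and control 3 (0.559).

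Leaving out 1 library gave 4 to 10 called loci, 7 to 12 called overlapped genes and 477 to 693 called genes. Of the 10 called loci, 4 remained without control 1, and 6 without air-dried 1. POPTR_0014s09190.r1 and POPTR_0017s01120.r1 stayed called in all 17 settings, and none of the loci and genes whose change was recomputed reversed. Loci named just for their level, ratio or length were not among them. With the replicate number as a block 9 loci were called, 5 of them among the 10, with 8 overlapped genes and 557 genes in all. Deviations from the group means of same-numbered libraries correlated at 0.24, −0.15 and 0.12, so the numbers were not taken as pairs. Loci overlapping the span of an annotated transcript (9 called) and loci with no annotated gene on their own strand (8 called) were alternatives added after the data were seen, as was the use of annotated transcripts alone for the loci. Why these counts shifted was not tested. Since FPKM carries no counts, the level at which a listed 0 excludes expression is unknown.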

Other observations

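Antisense loci outside the rule gave further values. Of the 78 loci of at least 200 bp above 0 in fewer than 3 libraries, 58 were listed at 0 in all 6 libraries. Of the other 20, 8 reached 10 FPKM or more in 1 or 2 libraries. The highest was a locus on the minus strand of chromosome 1 (48083035 to 48179107), listed at 660 FPKM in control 2, at 464 FPKM in air-dried 2 and at 0 in the other 4 libraries. A further 16 antisense loci spanned 101 to 198 bp, and the 9 of them above 0 in 3 or more libraries had means of 13.2 to 340 FPKM, with a median of 92.3 FPKM.

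The summed FPKM of the 341 loci made up 6.36%, 3.25% and 1.79% of the sum of all genes in controls 1, 2 and 3 and 8.74%, 2.29% and 3.51% in air-dried 1, 2 and 3. The sum of all genes itself was 2031732, 3958425 and 3257030 FPKM in the controls and 1835112, 4180878 and 1711808 FPKM in the air-dried libraries, so the shares also follow that total. The loci summed to 129251, 128651 and 58219 FPKM in the controls and 160354, 95795 and 60037 FPKM in the air-dried libraries. The 2 most abundant loci carried much of these sums. Without them the loci summed to 35509, 35078 and 30423 FPKM in the controls and 36344, 26284 and 22649 FPKM in the air-dried libraries.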
